A study of Homo sapiens with 40 samples.

Results

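REC1 is an established human line of mantle cell lymphoma, a cancer of mature B cells. The arrays of REC1 treated with OTX015 or DMSO were picked by their titles, which gave 10 of the 40 arrays of the series. The 5 OTX015 arrays and the 5 DMSO arrays of REC1 were taken at 2, 4, 8, 12 and 24 h, with 1 array for each treatment and time. The lines set against it were GRANTA519, JEKO1 and MAVER1, also mantle cell lymphoma lines, each with the same 10 arrays. DMSO was the vehicle in every line. The sources used here give no dose of OTX015 and do not say that the times are separate cultures. The 5 times of a line therefore stood in for replicates. The p-values of effects measure only how much the response varied between times, pooled over the 4 lines. For differences from other lines, the time course shared by all lines was first taken out of that variation. For trends, the slope of each line was taken out. The variation measured may be technical, and the p-values say nothing about other cultures.

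OTX015 is a BET bromodomain inhibitor. BET proteins bind acetylated lysines of histones through their bromodomains and recruit the elongation factor P-TEFb, which releases paused RNA polymerase II. In lymphoma cells BET inhibitors are known for lowering genes driven by large clusters of enhancers, MYC and B cell genes among them, and for raising histone genes and HEXIM1. Mantle cell lymphoma is known for a translocation that puts CCND1, the gene of cyclin D1, beside the immunoglobulin heavy chain locus, and REC1 is known as a line with active Notch signalling.

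Levels are log2 values of background-corrected and quantile-normalized array signals, 1 probe a gene, and the response at a time is the OTX015 level minus the DMSO level of the same line and time. A probe was called detected where its signal exceeded the background of its array at a one-sided p of 0.01. REC1 arrays detected 38.6% to 44.5% of the 47231 probes, against 35.3% to 46.8% over all 40 arrays, and the closest array to each of the 40 was one of the same line. B cell markers were present in REC1: CD79A, CD79B, CD22, CD37, MS4A1, CD24 and SOX11 were detected on all 10 arrays, whereas CD5 was detected on none. Effects are given as the mean of the 5 times with the standard error of limma's fit, which shares 1 estimate of the spread over the 4 lines. A gene near background in the other lines varies little there. Its standard error and p-value can then understate how much the REC1 response varied between times. Adjusted p-values are Benjamini-Hochberg values of limma over 13740 genes, called at 0.05. The background correction affects sizes. Without it, 50 of the named changes that exceeded 2-fold came out at a median of 66.8% of the size given here.

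In REC1, OTX015 raised histone genes and lowered B cell surface receptors and the chemokine gene CXCL10, while a small set of genes responded otherwise than in GRANTA519, JEKO1 and MAVER1. FOXA2, CCND1, CXCL10 and MYEOV were lower with OTX015 in REC1. In the other lines a fall of some of them could not be seen, because FOXA2 was detected on no array there and MYEOV on 1, CCND1 was undetected in JEKO1, and CXCL10 lay near background in JEKO1 and MAVER1. Over the 5 times 2123 of 13740 genes passed (15.5%), 1074 of them higher (7.82%) and 1049 lower (7.63%). The other lines had more calls in the same fit, with 3341 (24.3%) in GRANTA519, 3337 (24.3%) in JEKO1 and 3021 (22%) in MAVER1. Of the genes that rose in REC1, 480 rose in all 4 lines (44.7% of the REC1 rises), and of those that fell 418 fell in all 4 (39.8% of the REC1 falls). The REC1 count was 1182 without the 12 h pair and 1083 without the 8 h pair. Across genes, the REC1 response had a Pearson correlation of 0.692 with GRANTA519, 0.658 with JEKO1 and 0.706 with MAVER1. The 3 pairs among the other lines lay between 0.686 and 0.765. Genes are not independent replicates, and these values are a description of 13740 points that share their normalization.

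The number of genes at least 2-fold lower with OTX015 was larger at each later time in REC1, with 119, 243, 315, 401 and 418 genes at 2, 4, 8, 12 and 24 h. The number at least 2-fold higher stayed between 156 and 202. Each time has 1 array per treatment, so these counts carry no test.

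EFR3B, a plasma membrane scaffold gene, showed the largest rise of REC1. Its level was 5.34, 7.51, 7.84, 7.53 and 7.35 in the OTX015 arrays at 2, 4, 8, 12 and 24 h, and 4.34, 4.34, 4.62, 4.38 and 4.71 in the DMSO arrays. It was detected on none of the DMSO arrays, which makes the rise at least 4.54-fold (limma, adjusted p = 0.000344), and 2 further probes of the gene changed by 0.22 and 0.24 only. FGFR3, a fibroblast growth factor receptor, averaged 7.41 ± 0.64 with OTX015 and 4.88 ± 0.35 with DMSO (SD, n = 5 times each), a rise of 2.53. A further FGFR3 probe, detected on 9 of the 10 REC1 arrays, changed by 0.43 only. TUBB3, a beta tubulin best known from neurons, rose by 1.98 ± 0.22 (SE; adjusted p = 3.75e-06), and the rise exceeded the mean of the other lines by 0.69 ± 0.13 (adjusted p = 0.00576). The OTX015 and DMSO levels of these 3 genes did not overlap. TUFT1 rose by 1.87, VASN by 1.82 and ZSWIM6 by 1.61 on the log2 scale, and each rose in the other 3 lines too. EFR3B and FGFR3 also rose there. In GRANTA519, JEKO1 and MAVER1 the change was 3.48, 2.4 and 2.07 for EFR3B and 2.23, 1.97 and 1.72 for FGFR3.

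Replication-dependent histone genes, which are packed in clusters and supply histones to new chromatin, made up 5 of the 12 largest rises named. Of 35 measured genes 21 rose in REC1, none fell, and the median effect was 0.79, against 0.01 over all genes tested. The level of H2BC5, a histone H2B gene, was 8.82, 9.39, 9.85, 10.12 and 10.62 in the OTX015 arrays from 2 to 24 h, and 7.52, 7.35, 7.17, 7.4 and 7.6 in the DMSO arrays. Each OTX015 array lay above every DMSO array, with an effect of 2.35 ± 0.22 (limma, adjusted p = 2.99e-07), and the response increased by 0.48 per log2 unit of time (adjusted p = 0.0147). H2BC21 rose by 2.22, H2AC6 by 2.16, H2AC18 by 1.64 and H2BC11 by 1.62. Histone genes are near-identical copies, so a probe may read more than 1 of them. The 250 bases before the start of H2BC5 are shown as an example of a histone promoter, at chr6:26157871-26158120 on the plus strand of GRCh38.p14 (RefSeq), with matches to TATAAA on either strand in capitals.
H2BC5: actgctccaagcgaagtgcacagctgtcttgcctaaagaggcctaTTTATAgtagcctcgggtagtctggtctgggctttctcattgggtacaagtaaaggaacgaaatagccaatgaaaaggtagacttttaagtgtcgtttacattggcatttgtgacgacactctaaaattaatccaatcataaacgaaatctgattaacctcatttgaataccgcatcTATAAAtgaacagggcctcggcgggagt
The match nearest to the start begins 28 bases before it. On either strand TATAAA is held by 10.7% of 35116 promoter windows of this length.

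The rise of some histone genes was smaller in REC1 than in the other lines. H4C15, a histone H4 gene, had levels of 6.03, 6.05, 6.74, 6.69 and 7.51 in the OTX015 arrays of REC1 and 5.84, 5.41, 5.72, 5.48 and 5.68 in its DMSO arrays, without overlap. Its effect of 0.98 in REC1 stood against 2.31 in GRANTA519, 2.27 in JEKO1 and 2.51 in MAVER1, a difference of -1.39 ± 0.14 from their mean (adjusted p = 4.92e-05). H4C14 rose by 1.07 in REC1 and differed from the mean of the others by -1.36. H4C14 and H4C15 are near-identical copies and may be 1 measurement. H3C10 and H2AC17 rose in the other 3 lines but were detected on no REC1 array, so a rise below background would not be seen there. In all, 6 of the 35 genes responded less in REC1 than in the mean of the others (1.53% of all genes tested did) and none more. H3C10 is 1 of the 6, and another, H2AC8, was detected on 2 OTX015 and 1 DMSO arrays of REC1. The medians of the other lines were 0.89, 1.32 and 1.03.

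Falls in REC1 were led by GPR183, a receptor for oxysterols that guides B cell migration. Its level was 6.93, 6.78, 6.86, 6.25 and 5.09 in the OTX015 arrays and 9, 8.31, 9.09, 9.21 and 8.93 in the DMSO arrays. The groups did not overlap, and the gene was 5.75-fold lower with OTX015 (limma, adjusted p = 9.6e-07). SLC2A5, a fructose transporter, fell by 2.43 on the log2 scale, and the Fc receptor-like genes changed by -2.39 (FCRL4) and -2.24 (FCRL2). Both encode surface proteins of B cells. GAPT, an adaptor protein gene, fell by 2.11 and CCDC191, a coiled-coil protein gene, fell by 2.13. TNFRSF17, which encodes the plasma cell receptor BCMA, had 6.31, 4.6, 4.36, 4.29 and 4.34 in the OTX015 arrays, with the gene detected on 1 of them, against 7.36, 7.43, 7.25, 7.07 and 5.8 in the DMSO arrays. Its change of -2.20 in REC1 was smaller than the mean of the other lines, where the change was -3.49, -3.07 and -3.84 (difference 1.27 ± 0.32, adjusted p = 0.0379), but in REC1 the gene could not be seen to fall further at most times.

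Among the lists of B cell genes, falls outnumbered rises, whereas 7.82% of all genes tested rose in REC1 and 7.63% fell. In B cell receptor signalling 1 of 30 measured genes rose and 7 fell (23.3%, median -0.27). In GRANTA519, JEKO1 and MAVER1 14, 18 and 10 of them fell (medians -0.54, -0.66 and -0.28). In the toll-like receptor and MYD88 pathway 1 of 25 rose and 10 fell in REC1 (40%, median -0.27). In the other lines 10, 12 and 12 fell (medians -0.23, -0.29 and -0.38). SLA, an adaptor that dampens receptor signalling, fell by 1.71, and the toll-like receptors TLR10 and TLR6 fell by 1.38 and 1.32, while IRF7, a transcription factor of the interferon system, rose by 1.26. TLR10 fell less than in the mean of the other lines (difference 1.02, limma, adjusted p = 0.0265). PTPN6, detected on every REC1 array, also had a higher response than that mean (difference 1.95, adjusted p = 0.01). Neither difference passed without the 8, 12 or 24 h pair. Among 27 transcription factors of B cells 1 rose and 7 fell (25.9%; median -0.20), with IKZF1 at -1.22, SPI1 at -1.21 and TCF3 at -0.97. Among 27 migration receptors and adhesion genes none rose and 6 fell (22.2%, median -0.31). Falls in GRANTA519, JEKO1 and MAVER1 numbered 11, 9 and 5 among the transcription factors and 10, 16 and 10 among the migration and adhesion genes. The sphingosine phosphate receptor S1PR1, which draws lymphocytes out of lymphoid tissue, was lower by 1.18, and CD80, a costimulatory ligand, by 1.19. Of 10 measured B cell and mantle cell lymphoma markers 4 fell and none rose (median -0.30), CCND1 among them. BTK, the kinase targeted by ibrutinib, changed by -0.63 ± 0.21 (adjusted p = 0.0473), a call that did not hold without the 4, 8, 12 or 24 h pair, where the effect lay between -0.66 and -0.51.

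Compared with the mean of the other 3 lines, the REC1 response differed for 419 genes (3.05%), 209 of them higher (1.52%) and 210 lower (1.53%). A stricter count took genes that differed in the same direction from each of GRANTA519, JEKO1 and MAVER1, with an adjusted p of 0.05 or below in all 3 contrasts. By that count 25 genes were higher in REC1 (0.182%) and 52 lower (0.378%), 77 in all. The same count gave 21 genes without the 12 h pair, 24 without the 8 h pair and 35 without the 24 h pair. It gave 40 genes without the 4 h pair and 111 without the 2 h pair. The difference from the mean of the others kept its call and direction under every alternative that could test the gene for 49 of the 77. The call against each of the 3 lines was kept throughout by 12 of the 77. Apart from CCND1, which was undetected in JEKO1, these were genes detected in REC1 only, as defined below. Their response in the other lines could not be measured, and none of the 12 was detected in all 4 lines.

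Detection decided what could be seen for many of these genes. Of the 52 lower genes, 22 were detected in REC1 only, that is on at least 3 of the 5 arrays of 1 treatment there and in no other line, 9 in REC1 and 1 or 2 other lines, 16 in all 4 lines and 5 not in REC1. Of the 25 higher genes, 12 were detected in all 4 lines and 7 not in REC1. A gene below background in a line cannot be seen to fall there. Among the 9648 genes detected in all 4 lines, 12 were higher in REC1 than in each other line (0.124%) and 16 lower (0.166%). Detection with 1 treatment was enough here, so background still limits some of them. Among the 12, APOL3 was detected on no DMSO array and KMO on no OTX015 array of REC1. By their calls, 31 of the 52 lower genes and 7 of the 25 higher genes passed in REC1 alone. A further 11 of the lower and 13 of the higher genes passed in the other 3 lines and not in REC1.

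**Figure D1:**
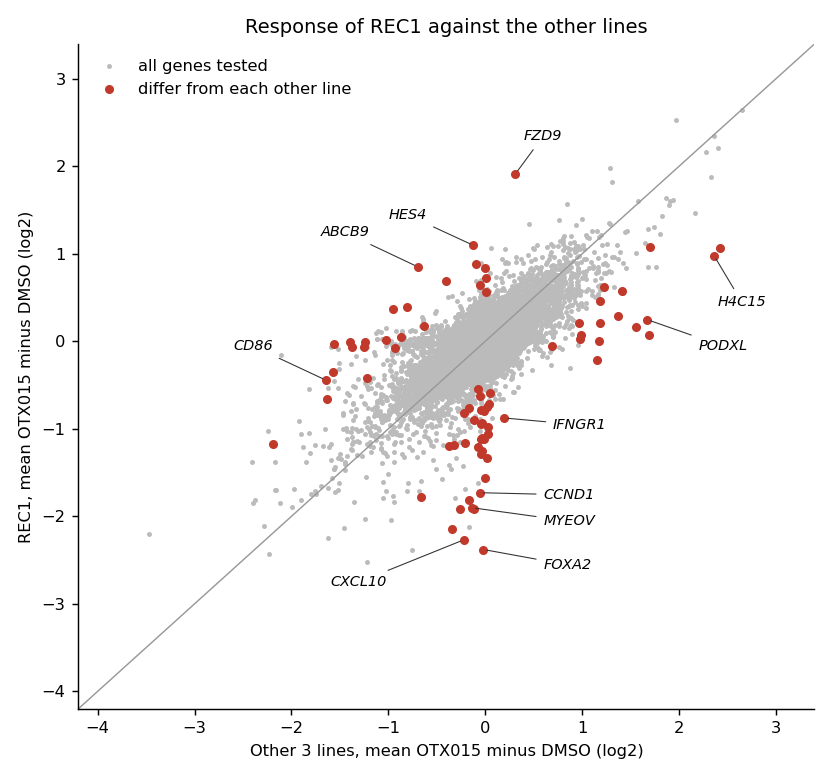
Mean OTX015 response of each gene in REC1 (vertical axis, log2) against the mean of GRANTA519, JEKO1 and MAVER1 (horizontal axis, log2), for 13740 genes, with the line of equal response. Red points are the 77 genes whose response in REC1 differed from each other line; FOXA2, CXCL10, MYEOV and CCND1 lie near 0 on the horizontal axis and between -2.38 and -1.73 on the vertical axis.

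FOXA2, a forkhead transcription factor of endoderm and liver, had the largest fall against the other lines. Its level was 5.9, 5.73, 6.32, 6.35 and 6.43 in the OTX015 arrays of REC1 and 8.3, 8.29, 8.63, 8.85 and 8.57 in the DMSO arrays. The fall was already present at 2 h, the groups lay far apart at all 5 times, and the effect was -2.38 ± 0.08 (limma, adjusted p = 1.2e-14). No array of the other 3 lines detected it, where levels lay between 4.21 and 4.66 with either treatment, so its response there could not be measured. The value comes from 1 of 3 FOXA2 probes, and the others were detected on no array.

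CCND1 fell in REC1, where its DMSO level was well below that of GRANTA519 and MAVER1. Its level was 4.74, 4.29, 4.21, 4.24 and 4.33 in the OTX015 arrays of REC1, none of which detected it, and 6.3, 6.12, 5.95, 5.93 and 6.16 in the DMSO arrays, all of which did. The groups did not overlap, and the fall was at least 2.17-fold (adjusted p = 1.69e-10). In GRANTA519 CCND1 averaged 10.43 ± 0.37 with OTX015 and 10.56 ± 0.18 with DMSO, and in MAVER1 13.22 ± 0.17 with OTX015 and 13.31 ± 0.13 with DMSO (SD, n = 5 times each), changes of -0.13 and -0.08. The REC1 effect differed from the mean of the others by -1.68 ± 0.11 (adjusted p = 2.3e-07). JEKO1 had no detectable CCND1 signal. A single probe read the gene, and its place in the transcript was not analysed here.

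MYEOV, a gene next to CCND1 on chromosome 11, fell later. Its REC1 levels were 7.26, 6.27, 4.9, 4.98 and 4.63 in the OTX015 arrays and 7.5, 6.82, 7.77, 7.69 and 7.76 in the DMSO arrays. The first 2 times differed by 0.24 and 0.54, and the last 3 by at least 2.71 log2 units. Neither arm of the other lines held a level above 5.11. The difference from the mean of the others was -1.77 ± 0.31 (adjusted p = 0.00351), but it did not pass without the 12 h pair (adjusted p = 0.0524) or without the 8 h pair (-1.48, adjusted p = 0.0547). Its standard error shares the spread of the other lines, where the 2 treatments differed by -0.41 to 0.26 only.

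CXCL10, a chemokine induced by interferon that attracts T cells, was abundant in the DMSO arrays of REC1. Its level was 10.36, 8.69, 6.71, 7.16 and 8.07 in the OTX015 arrays and 10.68, 9.93, 10.02, 10.53 and 11.18 in the DMSO arrays. The 2 h OTX015 array lay within the DMSO range, and the other OTX015 arrays lay below it. The gene was 4.82-fold lower over all times (adjusted p = 4.11e-05). GRANTA519 had 7.42 ± 0.82 with OTX015 and 7.86 ± 0.26 with DMSO, and JEKO1 and MAVER1 had levels close to background. The difference from the mean of the others was -2.05 ± 0.36 (adjusted p = 0.00371), and it was -1.81 without the 12 h pair (adjusted p = 0.0554) and without the 8 h pair (adjusted p = 0.0608). The 250 bases before the start of CXCL10 are shown because the gene is a known target of interferon and NF-kB factors, at chr4:76023498-76023747 on the minus strand of GRCh38.p14 (RefSeq). The capitals mark a match to the core of interferon-stimulated elements (GAAA, 2 bases of any kind, GAAA) and a match to a form of the NF-kB motif (GGGA, 2 bases of any kind, TTCC).
CXCL10: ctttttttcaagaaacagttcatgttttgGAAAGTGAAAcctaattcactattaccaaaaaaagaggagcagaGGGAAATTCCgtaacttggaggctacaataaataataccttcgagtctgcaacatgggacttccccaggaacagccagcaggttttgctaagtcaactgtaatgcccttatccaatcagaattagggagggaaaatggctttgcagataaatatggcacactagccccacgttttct
The interferon motif begins 221 bases and the NF-kB motif 177 bases before the start. On either strand they are held by 3.02% and 1.4% of 35116 promoter windows of this length.

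Of the cytokine receptor genes, IFNGR1 and IL10RA fell in REC1 beyond the mean of the other lines. IFNGR1, the ligand-binding chain of the interferon gamma receptor, had levels of 10.03, 9.8, 9.76, 9.41 and 9.45 in the OTX015 arrays of REC1 and 10.91, 10.76, 10.48, 10.41 and 10.26 in its DMSO arrays. Every OTX015 array lay below every DMSO array. The effect of -0.88 ± 0.13 in REC1 (adjusted p = 6.91e-05) stood against -0.12 in GRANTA519, 0.40 in JEKO1 and 0.31 in MAVER1, of which the JEKO1 rise passed the test (adjusted p = 0.0234). IFNGR1 was detected on every array of the 4 lines, and the difference from the mean of the others was -1.07 ± 0.12 (adjusted p = 6.63e-05). IL10RA, a chain of the interleukin 10 receptor, fell by 0.94 in REC1, against changes of -0.13, -0.60 and 0.20 in the other lines (difference -0.76, adjusted p = 0.0016). IL6R, chosen after its values were seen, fell by 0.72 in REC1 and was detected in no other line. Of 30 measured genes of JAK-STAT signalling and cytokine receptors 5 rose (16.7%, against 7.82% of all genes tested) and 8 fell (26.7%, against 7.63%) in REC1, with a median of 0, the kinase PIM1 rising by 0.91 (adjusted p = 0.00194). The response of 3 of the 30 was lower than the mean of the others, IL6R being the third, and that of 1, PIM1, was higher.

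Of 43 measured interferon response genes 2 rose and 10 fell in REC1 (23.3%, against 7.63% of all genes tested), with a median of -0.10 against -0.42, -0.26 and -0.42 in the other lines. Only 26 of the 43 were detected in REC1, and a fall of the rest could not be seen there, which limits the comparison of medians. TRIM22, an antiviral protein, fell by 1.55 (adjusted p = 0.00225) and PARP14 by 0.87 (adjusted p = 0.00156). The difference from the other lines passed for 5 of the 43 genes, all higher in REC1. GBP1, SAMD9L and ISG20 were among them, with REC1 effects of 0.12, -0.17 and -0.21 that did not pass. Of these, ISG20 was detected on all 10 REC1 arrays, GBP1 on 1 array of each arm and SAMD9L on none, so little fall could be seen in GBP1 and SAMD9L. The ISG20 difference of 1.03 did not pass without the 8 h pair (0.93, adjusted p = 0.0769) or the 12 h pair (1.05, adjusted p = 0.0552). The GBP1 difference of 0.98 did not pass without the 8, 12 or 24 h pair, where it lay between 0.87 and 0.89 (adjusted p = 0.0751 to 0.0949). SAMD9L was chosen after its values were seen.

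**Figure D2:**
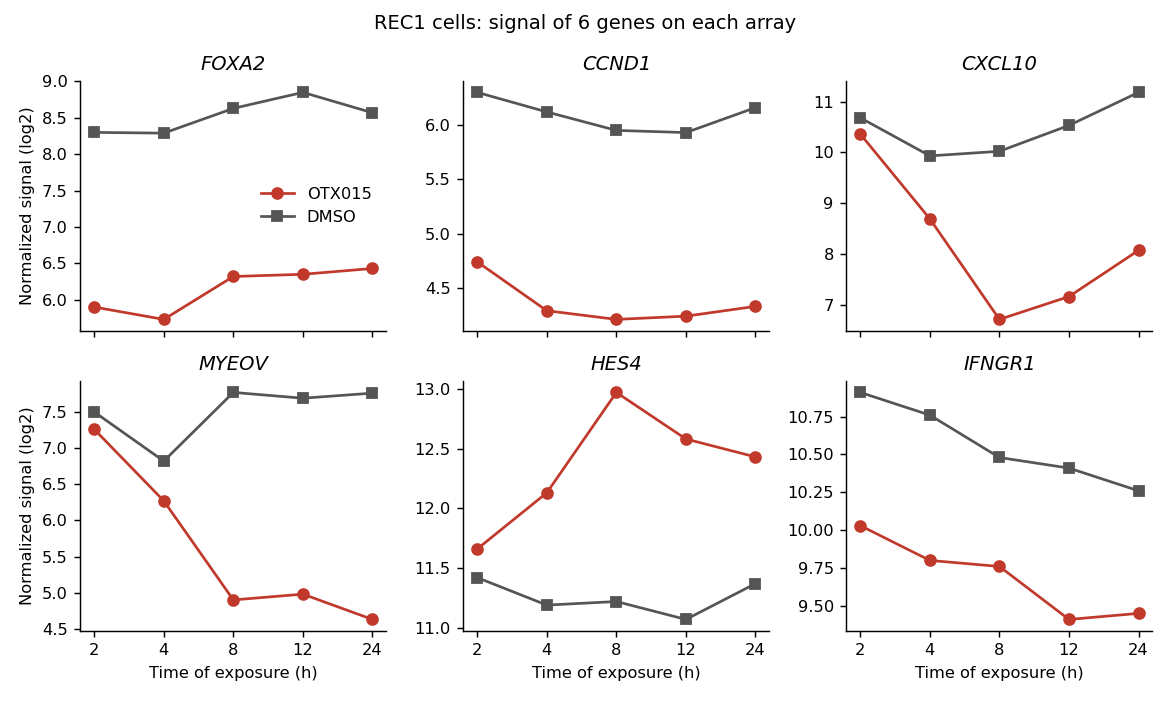
Level of 6 genes on each REC1 array (vertical axis, log2 of the normalized signal, a separate scale for each gene) by time of exposure (horizontal axis, in h, evenly spaced), with OTX015 in red and DMSO in grey. FOXA2, CCND1 and IFNGR1 are apart at all 5 times, CXCL10 and MYEOV are far apart at 8, 12 and 24 h, and HES4 is higher with OTX015 on every array.

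Notch pathway genes moved in both directions. HES4, a repressor induced by Notch, had levels of 11.66, 12.13, 12.97, 12.58 and 12.43 in the OTX015 arrays of REC1 and 11.42, 11.19, 11.22, 11.07 and 11.37 in the DMSO arrays. All OTX015 arrays lay above all DMSO arrays, and the gene was 2.14-fold higher (limma, adjusted p = 0.000129). In the other lines HES4 was at most 5.71 on any array and its changes of 0.20, -0.44 and -0.12 did not pass. The difference from their mean was 1.22 ± 0.17 (adjusted p = 0.000667). The 250 bases before the start of HES4 lie at chr1:1000098-1000347 on the minus strand of GRCh38.p14 (RefSeq) and are shown because RBPJ, the DNA-binding factor of Notch signalling, is known to recognise TGGGAA, which is in capitals.
HES4: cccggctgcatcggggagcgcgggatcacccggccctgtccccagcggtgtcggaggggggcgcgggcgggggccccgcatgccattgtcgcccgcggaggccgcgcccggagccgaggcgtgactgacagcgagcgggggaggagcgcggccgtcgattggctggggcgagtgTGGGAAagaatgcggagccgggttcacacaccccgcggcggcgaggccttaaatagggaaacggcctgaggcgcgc
The match begins 76 bases before the start, and 20.8% of 35116 promoter windows of this length hold TGGGAA on either strand.

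Of 30 measured Notch pathway genes 5 rose (16.7%, against 7.82% of all genes tested) and 2 fell (6.67%, against 7.63%) in REC1, with a median of 0.04. HES6 rose by 0.89, against 2.06, 0.70 and 1.52 in the other lines. DTX3, of the Deltex family, fell by 1.46 and CD300A, a B cell target of Notch, by 1.83. NOTCH1 itself had levels of 9.19, 9.5, 8.88, 8.14 and 8.37 in the OTX015 arrays and 8.43, 8.4, 8.15, 8.2 and 8.62 in the DMSO arrays. These ranges overlapped, and the effect of 0.45 ± 0.18 did not pass (adjusted p = 0.0884). In the other lines NOTCH1 rose by 0.68, 0.78 and 0.98, and the difference between REC1 and their mean did not pass (adjusted p = 0.336). MIB2, a ubiquitin ligase that acts on Notch ligands, changed by 0.40 in REC1 (adjusted p = 0.163) and fell by 0.59, 0.80 and 1.05 in the other lines, a difference of 1.21 ± 0.17 (adjusted p = 0.00061). DTX1, a Deltex gene chosen after its values were seen, changed by -0.42 in REC1 (adjusted p = 0.115) and fell by 1.06, 1.39 and 1.22 in the other lines. LFNG, a glycosyltransferase that modifies Notch receptors, changed by 0.00 in REC1 against 2.04, 0.51 and 0.98 in the other lines (difference -1.17, adjusted p = 7.35e-06). With the mean of all LFNG probes the difference was -0.39 (adjusted p = 0.119).

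Other rises were larger in REC1 than elsewhere. FZD9, a receptor for Wnt ligands, had levels of 7.75, 7.82, 7.49, 6.83 and 6.92 in the OTX015 arrays of REC1 and 5.46, 5.16, 5.67, 5.27 and 5.67 in the DMSO arrays, with a wide gap between the groups. The effect was 1.92 ± 0.18 in REC1 (adjusted p = 2.99e-07) and 0.89 in MAVER1 (adjusted p = 0.000826). The gene was detected on no array of GRANTA519 or JEKO1. ABCB9, a lysosomal peptide transporter, had levels of 7.01, 7.5, 7.83, 7.25 and 7.24 in the OTX015 arrays of REC1 and 6.35, 6.29, 6.54, 6.6 and 6.78 in the DMSO arrays, again without overlap. ABCB9 rose by 0.85 in REC1 (adjusted p = 0.000264) and fell by 0.49 in GRANTA519 (adjusted p = 0.0131) and by 1.31 in JEKO1 (adjusted p = 9.54e-07), and a further probe gave 0.86 in REC1 against -0.64, -1.31 and -0.32. C12orf57, a gene named only by its position, rose by 0.69 in REC1 (adjusted p = 0.029), with changes of -0.43, -0.41 and -0.38 in the other lines.

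CD86, a costimulatory ligand of B cells, was read by 3 probes that disagree on its response in REC1. With the probe used here, its level was 10.23, 9.66, 9.7, 9.3 and 9.96 in the OTX015 arrays of REC1 and 10.33, 10.24, 10.15, 10 and 10.34 in the DMSO arrays, where the highest OTX015 level lay within the DMSO range. The effect was -0.44 ± 0.19 in REC1 (adjusted p = 0.135) and -1.57, -1.99 and -1.37 in the other lines, a difference of 1.20 ± 0.14 (adjusted p = 0.000114). This probe was detected on all 40 arrays. A second probe, detected on 8 of the 10 REC1 arrays, changed by -1.35 in REC1 against -1.03, -1.35 and -0.41 in the other lines. The remaining probe, detected on all 10, changed by -0.14 against -1.01, -1.15 and -1.01. With the mean of all probes the difference was 0.56 (adjusted p = 0.0222). PODXL, a sialomucin of the cell surface, changed by 0.25 in REC1 (adjusted p = 0.506) and rose by 2.10 in GRANTA519 and by 1.77 in MAVER1, with a smaller rise in JEKO1. The DMSO level of PODXL was already 7.94 ± 0.22 in REC1, against 5.10 ± 0.13, 4.72 ± 0.48 and 5.55 ± 0.25 in the other lines (SD, n = 5 times each). KMO, an enzyme of tryptophan breakdown, changed by -1.17 on the log2 scale in REC1, against -2.33, -2.16 and -2.08 in the other lines. No OTX015 array of REC1 detected it, so its fall there is a bound of at least 1.76-fold and a larger one could not be seen. GPX7 fell in all 3 other lines, with an effect of -0.34 in REC1 that did not pass, and lost the difference without the 8 h pair (1.19, adjusted p = 0.0535). APOL3 fell in GRANTA519 and MAVER1, but no DMSO array of REC1 detected it, so a fall could not be seen there. GAS7, PARP15, RASGRP3, BTN3A2 and PON2 fell in the other 3 lines but were detected on no REC1 array, and P2RY8 was detected on 1 array of each arm. GLCE rose in the other lines and was likewise undetected in REC1.

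Several further genes were lower in REC1 than in each other line, and all of those named here but FCGBP were detected on few or no arrays elsewhere. CPED1, a gene without a settled function, fell by 2.15 in REC1 (a further probe changed by -0.80), FCGBP, which encodes a mucus protein that binds IgG, by 1.92, ZFP37, a zinc finger gene, by 1.91, LCN10, a lipocalin, by 1.81 and HTR3A, a serotonin-gated channel, by 1.56. HTR3A was detected on no array of the other lines, and LCN10 and ZFP37 on at most 2 arrays of an arm. ZFP37 was detected on 1 OTX015 array of REC1 and on all 5 DMSO arrays, with levels of 4.5, 4.36, 4.87, 5.07 and 4.61 with OTX015 against 6.59, 6.85, 6.71, 6.45 and 6.37 with DMSO. FCGBP was detected in all 4 lines. In MAVER1 every array detected it, and it changed there by 0.23 (adjusted p = 0.627).

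**Figure D3:**
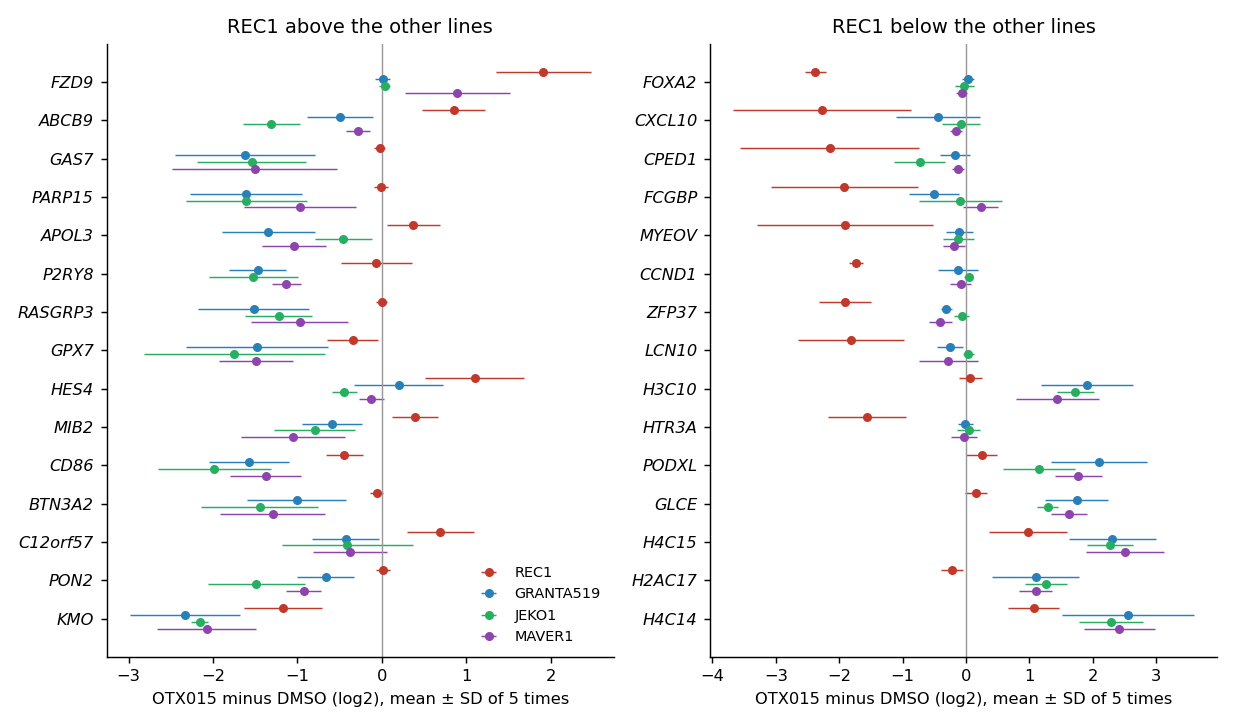
OTX015 response (horizontal axis, log2, mean ± SD of 5 times) in REC1, GRANTA519, JEKO1 and MAVER1 for the 15 genes with the largest positive (left) and the 15 with the largest negative (right) difference between REC1 and the mean of the other lines, among genes that differ from each. FOXA2 lies at -2.38 in REC1 and between -0.07 and 0.04 elsewhere, whereas CD86, by 1 of its 3 probes, lies at -0.44 in REC1 and between -1.99 and -1.37 elsewhere.

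MHC class II genes, which present antigen to helper T cells under control of the coactivator CIITA, were in part at or near background in REC1. Of 18 measured genes none rose and 2 fell in REC1 (11.1%, against 7.63% of all genes tested), and the median was -0.01, against -0.72, -0.87 and -0.34 in the other lines. Only 10 of the 18 were detected in REC1. CIITA had 4.69, 4.98, 4.61, 4.61 and 5.38 in the OTX015 arrays of REC1 and 4.54, 4.84, 5.18, 5.05 and 4.54 in the DMSO arrays, and was detected on 2 arrays of each arm. These ranges overlapped, and the effect was 0.02 (adjusted p = 0.969). In GRANTA519 and JEKO1 CIITA fell by 1.51 and 1.30, where its DMSO levels were 6.78 ± 0.39 and 6.90 ± 0.27 (SD, n = 5 times each), and in MAVER1 it changed by -0.53 (adjusted p = 0.0584). The difference of REC1 from their mean was 1.14 ± 0.22 (adjusted p = 0.00623), and a fall below background could not have been seen in REC1. HLA-DPB1, with a difference of 1.17, was detected on no REC1 array. HLA-DMB, which loads peptides and was detected on all 10 arrays, fell by 1.30 in REC1 (adjusted p = 0.00268), and its changes elsewhere were -1.38, -1.86 and -0.74. HLA-DRA and CD74, chosen after their values were seen and detected on all 10 REC1 arrays, changed by -0.12 and -0.19 and did not pass.

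Of 20 measured plasma cell and secretory genes 2 rose and 5 fell in REC1 (10% and 25%, against 7.82% and 7.63% of all genes tested; median -0.08, against -0.42, -0.25 and -0.32), and 4 differed from the mean of the other lines, all higher in REC1. JCHAIN, the joining chain of secreted antibodies, and CD27 were 2 of the 4 and were detected on no REC1 array. Of 18 MHC class I and peptide loading genes none rose and 2 fell (median -0.11), a share of 11.1% against 7.63% of all genes tested.

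**Figure D4:**
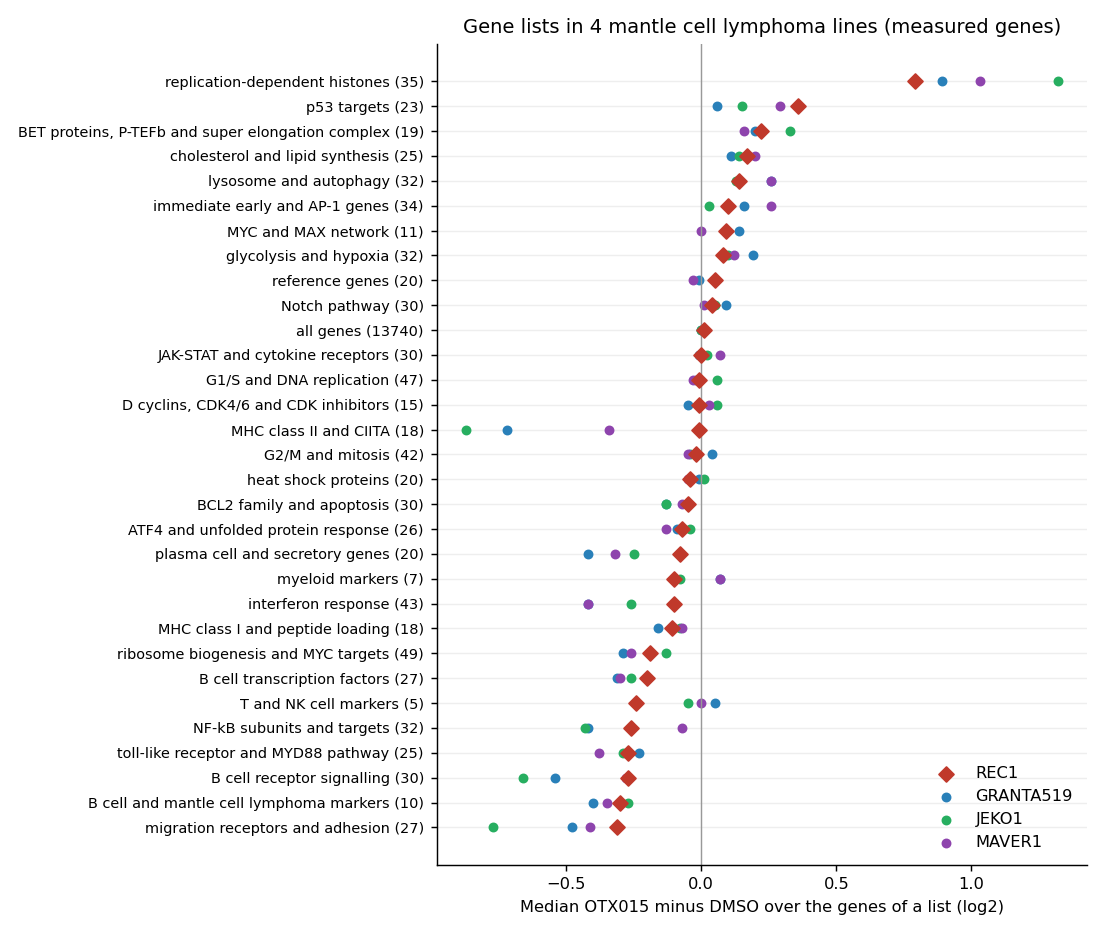
Median OTX015 response over the measured genes of each list (horizontal axis, log2; number measured in brackets) in REC1 (red diamonds) and the other lines (circles). The MHC class II list lies at -0.01 in REC1 and between -0.87 and -0.34 elsewhere, and the histone list lies at 0.79 in REC1 and between 0.89 and 1.32 elsewhere.

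MYC, a driver of growth and ribosome production, fell in REC1. Its level was 10.15, 10.14, 10.27, 10.14 and 10.88 in the OTX015 arrays and 10.97, 10.66, 10.74, 11.04 and 11.08 in the DMSO arrays, so that only the 24 h OTX015 array reached the DMSO range. The gene was 1.49-fold lower in REC1 (limma, adjusted p = 0.00237), with changes of -1.12 in GRANTA519, 0.04 in JEKO1 and -0.25 in MAVER1, and the difference from their mean did not pass (adjusted p = 0.718). Among 11 measured genes of the MYC and MAX network 2 rose, MXD4 by 1.10 and MXD1 by 0.94, both partners of MAX that oppose MYC. Of 49 ribosome biogenesis genes and MYC targets none rose and 11 fell (22.4%, against 7.63% of all genes tested; median -0.19), with PPRC1 at -0.77, PPAN at -0.76 and the folate carrier SLC19A1 at -0.81. Of 19 genes of BET proteins, P-TEFb and the super elongation complex 6 rose (31.6%, against 7.82% of all genes tested) and none fell (median 0.22), with SERTAD1 at 1.29, AFF4 at 0.78 and CDK9 at 0.62. HEXIM1, an inhibitor of P-TEFb that is used as a marker of BET inhibition, had levels of 5.83, 5.84, 5.73, 5.39 and 5.44 in the OTX015 arrays and 4.74, 5.27, 5.32, 5.09 and 5.37 in the DMSO arrays. The OTX015 level was higher at all 5 times, the closest levels were 5.39 and 5.37, and the effect of 0.49 ± 0.18 did not pass (adjusted p = 0.0665).

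Among 15 measured D cyclins, CDK4/6 and CDK inhibitors 4 rose (26.7%) and 1 fell (6.67%), where 7.82% of all genes tested rose and 7.63% fell. CDKN2D, an inhibitor of CDK4 and CDK6, rose by 1.22 (adjusted p = 0.000302) and CCND3, which encodes cyclin D3, by 0.59 (adjusted p = 0.00163), while CCND1 fell. Of 47 genes of G1/S and DNA replication 1 rose (2.13%) and 5 fell (10.6%; median -0.01), with POLE2 at -0.89, E2F2 at -0.88 and MCM2 at -0.59. Of 42 genes of G2/M and mitosis 4 rose (9.52%) and 1 fell (2.38%; median -0.02), BUB1 rising by 0.57 and UBE2C falling by 0.45. Of 23 p53 targets 9 rose (39.1%) and 1 fell (median 0.36, against 0.06, 0.15 and 0.29 in the other lines), with GADD45A at 0.84 and the nuclease AEN at -0.55. No p53 target differed from the mean of the other lines. CDKN1A rose by 0.62 ± 0.16 (adjusted p = 0.01), a call that did not hold without the 4, 8 or 12 h pair, where the effect lay between 0.50 and 0.61.

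Of 30 genes of the BCL2 family and apoptosis 2 rose and 5 fell (6.67% and 16.7%, against 7.82% and 7.63% of all genes tested; median -0.05), with MCL1 at 0.54 (adjusted p = 0.00449) and BID at -0.71 (adjusted p = 0.0061). BCL2 changed by -0.39 ± 0.13 (adjusted p = 0.0498) and BCL2L1 by -0.49 ± 0.13 (adjusted p = 0.00969). Without the 4, 8, 12 or 24 h pair the BCL2 effect lay between -0.45 and -0.30 and did not pass (adjusted p = 0.0538 to 0.274). Without the 8 or 12 h pair the BCL2L1 effect was -0.45 and -0.44 and did not pass (adjusted p = 0.0816 and 0.0865). Of 32 NF-kB subunits and targets 3 rose and 10 fell (31.2%; median -0.26, against -0.42, -0.43 and -0.07), with the transcription factor BATF at -1.34 and the caspase regulator CFLAR at -1.21. SOX11, a transcription factor of mantle cell lymphoma, changed by 0.19 in REC1 (adjusted p = 0.285) and rose by 0.50, 0.45 and 0.60 in the other lines, and the difference did not pass (adjusted p = 0.0723).

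Over the metabolic and stress lists, the share of genes that rose was 0% to 25%, against 7.82% of all genes tested, and the share that fell 0% to 7.69%, against 7.63%. Of 25 genes of cholesterol and lipid synthesis 6 rose (24%) and none fell, TM7SF2 by 1.20. Of 32 lysosome and autophagy genes 8 rose (25%) and 2 fell, the sialidase NEU1 rising by 0.98, WIPI1 by 0.87 and NPC1 by 0.62. Of 32 glycolysis and hypoxia genes 6 rose (18.8%) and 1 fell, with NDRG1 at 1.06 and the glucose transporter SLC2A1 at 0.61. Of 26 genes of ATF4 and the unfolded protein response 4 rose (15.4%) and 2 fell, asparagine synthetase ASNS at 0.71 and the pseudokinase TRIB3 at -1.06. Of 34 immediate early and AP-1 genes 7 rose (20.6%) and 1 fell, with ZFP36 at 0.90 and JUN at 0.80. None of 20 heat shock genes was called, and 1 of 20 reference genes was, the ATPase VCP with 0.47. Over these 7 lists the test against the mean of the other lines called 1 lysosome gene and 1 gene of the unfolded protein response.

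The response of 188 genes changed with the logarithm of time in REC1 (1.37%), 45 upward (0.328%) and 143 downward (1.04%). The total lay between 83 and 112 when any 1 time was left out. For 12 genes the trend differed from the mean trend of the other lines (0.0873%), 11 of them with a steeper fall in REC1 (0.0801%). The 12 became 8 without the 24 h pair, 6 without the 2 h pair and 2 without the 4, 8 or 12 h pair. Several of the 11 lay near background elsewhere, where a steeper fall could not be seen. ACP3, WNK2, CD3D and MYEOV were detected in REC1 only, and CAMP on 12 arrays, 10 of them of REC1. FCRL4 was detected on no JEKO1 array, and its DMSO level at 24 h was 4.71 in GRANTA519 and 4.31 in MAVER1. SERPINA9 was detected on at most 3 arrays of an arm in JEKO1 and MAVER1. SERPINA9, a serpin of germinal centre B cells, had differences of -0.08, -0.51, -1.90, -3.37 and -4.37 at 2, 4, 8, 12 and 24 h in REC1. FCRL4 had differences of -0.46, -1.45, -2.62, -3.43 and -3.98. CAMP, the gene of the antimicrobial peptide cathelicidin, had -0.31, -0.22, -0.93, -1.95 and -4.69, and its trend did not pass without the 24 h pair (-0.61, adjusted p = 0.0774). In each of these 3 genes the difference was largest at 24 h.

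ADTRP, a hydrolase gene, had differences of -0.51, -0.79, -1.63, -2.72 and -3.29 at the 5 times in REC1, with the smallest p among the trend differences (-0.79 ± 0.10 per log2 unit of time, adjusted p = 0.00359). CXCL10 and MYEOV, described above, were also among the 11, MYEOV with a trend difference of -0.86. CLIC6, ACP3, BACE2 and WNK2 completed the set of steeper falls with CD3D. JCHAIN was the single gene with a higher trend in REC1 (0.00728%), and no REC1 array detected it. Upward trends in REC1 were led by F8A3, H2AC11, SPRY1, ABCG1, CASD1 and HMCES. ABCG1, a cholesterol exporter, had differences of -0.50, -0.63, -0.10, 0.47 and 1.65, and SPRY1, an inhibitor of growth factor signalling, had -1.58, -0.95, -0.99, -0.32 and 0.79. Without the 24 h pair the trends of ABCG1, SPRY1 and HMCES were 0.37, 0.41 and 0.36 and did not pass (adjusted p = 0.362, 0.217 and 0.233). The F8A3 trend of 0.62 was 0.38 without the 2 h pair (adjusted p = 0.512) and also did not pass without the 4 or 8 h pair. The H2AC11 trend of 0.61 did not pass without the 2 h pair (0.56, adjusted p = 0.2) or the 24 h pair (0.67, adjusted p = 0.0722). The CASD1 trend of 0.54 lay between 0.50 and 0.63 and did not pass when any 1 time was left out (adjusted p = 0.0639 to 0.15).

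**Figure D5:**
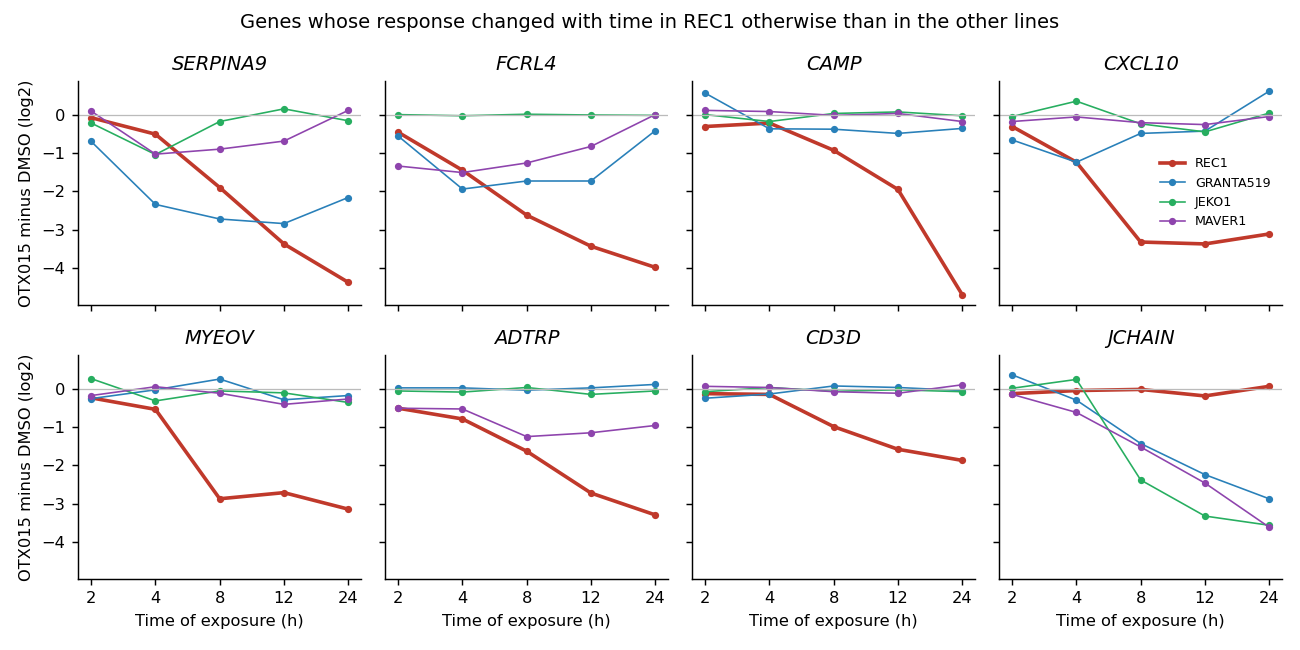
OTX015 minus DMSO (vertical axis, log2) by time of exposure (horizontal axis, in h, evenly spaced) in REC1 (thick red line) and the other lines for 8 of the 12 genes whose trend over time differed. In REC1 SERPINA9 reaches -4.37 and CAMP -4.69 at 24 h, and JCHAIN stays between -0.19 and 0.06.

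CD3D, the delta chain of the T cell receptor complex, was detected on all 10 REC1 arrays and on none of the other 30. Its level was 10.13, 9.77, 8.99, 8.47 and 8.17 in the OTX015 arrays and 10.26, 9.92, 9.97, 10.05 and 10.04 in the DMSO arrays. The 2 h OTX015 array lay within the DMSO range and the other OTX015 arrays lay below it. The effect was -0.94 ± 0.17 (adjusted p = 0.000562), and the trend of -0.55 per log2 unit of time differed from the other lines (adjusted p = 0.00998). Without detection in the other lines no response could be seen there, so differences from them only restate the fall in REC1. The standard error shares the spread of those lines, where the treatments differed by -0.25 to 0.1. In REC1 they differed by -0.13 to -1.87. The difference in effect from the mean of the other lines was -0.90, and it was -0.75 without the 12 h pair (adjusted p = 0.151), -0.89 without the 8 h pair (adjusted p = 0.105) and -0.67 without the 24 h pair (adjusted p = 0.115). Of the 5 measured T and NK cell markers 2 were detected in REC1, only CD3D was called, and CD7 was detected on no REC1 array. The summed signal of the 5 was 387 to 1230 in the OTX015 arrays and 1100 to 1340 in the DMSO arrays. Most of this sum was CD3D itself, so it says little about the other markers. The 7 measured myeloid markers summed to 601 to 644 in the OTX015 arrays and 575 to 668 in the DMSO arrays, and none was called. The 10 B cell and mantle cell lymphoma markers summed to 9890 to 13000 in the OTX015 arrays and 12500 to 15500 in the DMSO arrays. The part of other cells in these results was not tested, and fewer cells of a kind and less RNA per cell cannot be told apart in bulk samples.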

How the data were processed

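Total RNA of 4 mantle cell lymphoma lines was hybridised to Illumina bead arrays, 1 array for each of 4 lines, 2 treatments and 5 times. The authors deposited the signal intensity of 47231 probes on every array without normalization (70.92 to 22105), and the submitters' processing notes name GenomeStudio. Their series matrix, deposited as log2 values with a normalization that the sources used here do not state, served as an alternative. The members and lists were chosen with earlier results of these data known.

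The background of an array was the mode of its log2 signal density, between 91.94 and 103.4 in REC1. The normexp background model with an offset of 16 and quantile normalization followed (limma 3.58.1, R 4.3.3), which hides any shift common to all genes. A probe was detected where its signal passed the background at a one-sided p of 0.01, and 27188 probes detected on at least 4 arrays were kept. Exactly 1 gene symbol was known for 30113 probes, several for 8 and none for 17110. Of these symbols 30074 matched RefSeq genes of GRCh38.p14 and 39 did not. The brightest probe stood for a gene, which left 13740 genes.

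The 20 OTX015 minus DMSO differences, 1 for each line and time, were fitted with lmFit and eBayes of limma: with line for effects, line and time for differences from other lines, and line with its own slope on log2 time for trends. The labels pair the arrays by time. After the mean of each line and treatment was removed, the 2 arrays of a pair correlated across genes at 0.209 to 0.376 in REC1. Where no array of an arm detected a gene, its fold is given as a bound against the detection limit. The fits were tested on simulated data with known changes. Named genes were the 12 largest rises and falls with 1 sign at all 5 times, the 15 largest differences in each direction, the 6 largest trends in each direction, up to 3 called genes per direction and 2 differences of each of 30 lists, and a set of 12 fixed genes. Of the list genes, the text gives a selection that favours calls held across settings. Alternatives are given in the closing section. The number of arrays limits the precision. No array was left out, and no slide or scan date was used here.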

Additional observations from a re-analysis of the deposited data

Results flagged for a closer look

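In REC1 7 of 167 named genes had 1 time far from the other 4, where chance would flag about 1 in 20. These were EFR3B with 1 at 2 h, MS4A1 with -0.09 at 2 h, HEY2 with -0.06 at 2 h, PIK3R1 with 0.78 at 2 h, CASP9 with -0.21 at 2 h, DDIT3 with 0.92 at 4 h and CDKN2D with 2.10 at 4 h, all as OTX015 minus DMSO on the log2 scale.

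The 30 named genes that follow were picked among those that had passed the test against each other line, so their values are no further test. By the detection rule given above, FOXA2, HTR3A, LCN10, ZFP37 and MYEOV were detected in REC1 only. GAS7, PARP15, P2RY8, RASGRP3, BTN3A2, PON2, GLCE, H3C10 and H2AC17 were not detected in REC1. For these genes background limited the comparison, and the response could not be measured in both REC1 and the other lines. REC1 minus the mean of the other lines was 1.60 for FZD9, 1.55 for ABCB9, 1.53 for GAS7, 1.38 for PARP15, 1.32 for APOL3, 1.31 for P2RY8, 1.23 for RASGRP3 and GPX7, 1.22 for HES4, 1.21 for MIB2, 1.20 for CD86, 1.19 for BTN3A2, 1.10 for C12orf57, 1.04 for PON2 and 1.02 for KMO. It was -2.36 for FOXA2, -2.05 for CXCL10, -1.80 for CPED1 and FCGBP, -1.77 for MYEOV, -1.68 for CCND1, -1.65 for ZFP37 and LCN10, -1.62 for H3C10, -1.56 for HTR3A, -1.42 for PODXL, -1.39 for GLCE and H4C15, -1.37 for H2AC17 and -1.36 for H4C14.

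The trend over log2 time in REC1, minus the mean trend of the other lines, was -1.20 for SERPINA9, -1.17 for FCRL4, -1.08 for CAMP, -1 for CXCL10, -0.86 for MYEOV, -0.79 for ADTRP, -0.69 for ACP3 and CLIC6, -0.57 for CD3D, -0.56 for BACE2, -0.47 for WNK2 and 1.08 for JCHAIN.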

How the results depend on the processing

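Of 179 called values of named genes, none changed its direction in the alternatives run, 105 kept their call in every one and 74 lost it in at least 1. The REC1 effect of CIITA, not called, lay between -0.18 and 0.17. The alternatives were not run for H2AC8, ADTRP, ACP3, CLIC6, BACE2, WNK2 and the genes said to be chosen after their values were seen. Nor were they followed for the differences of TUBB3, TNFRSF17 and PIM1 from the other lines or for the trend of H2BC5. The trend difference of a single gene and the effects in the other lines were not followed either. Counts moved more, and the cause was not tested where the construction of an alternative does not give it. Counts below are given as higher and lower in REC1. Genes that differed from each other line numbered 41 and 81 without background correction, 41 and 82 with an offset of 50, 40 and 81 with the series matrix, 9 and 19 among genes detected on all 40 arrays, 9 and 29 with other covariates, 46 higher with array weights, 58 and 85 without JEKO1, 52 higher without MAVER1, and 12 and 16 among genes detected in all 4 lines. Leaving out 1 time gave 4 to 44 and 17 to 67. Genes that differed from the mean of the others numbered 70 and 96 among genes detected on all 40 arrays, 86 and 118 with other covariates and 453 and 399 with array weights, and 57 to 305 higher and 83 to 266 lower with 1 time left out. REC1 effects numbered 1755 and 1706 with array weights, and 527 to 1272 higher and 556 to 1264 lower with 1 time left out, lowest without 8 h and highest without 2 h. Trends numbered 81 higher without background correction, 85 with an offset of 50, 27 and 95 with median scaling, 78 higher with the series matrix, 79 lower among genes detected on all 40 arrays, 26 higher without GRANTA519, and 6 to 32 higher and 66 to 92 lower with 1 time left out. With only the REC1 arrays 0 and 5 trends passed limma's test, where 932 higher trends had an unadjusted p of 0.05 or below. Trend differences numbered 2 higher without background correction, 4 with an offset of 50, 2 with the series matrix, 0 and 0 among genes detected on all 40 arrays, 6 lower without the detection filter, 5 lower with array weights, 0 and 5 without GRANTA519, 1 lower without JEKO1, and 0 and 1 without MAVER1. With 1 time left out they numbered 0 to 1 higher and 1 to 7 lower. In limma's tests with 0 higher trend differences, 146 to 452 genes had an unadjusted p of 0.05 or below in that direction, and 182 in the lower direction where that count was 0.

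The labels pair OTX015 and DMSO arrays by time, and the fits use these pairs. With no replicate block, REC1 effects numbered 665 higher, differences from the mean 54 and 79, differences from each line 5 and 24, trends 15 and 95, and trend differences 3 higher. Of the 179 called values 51 lost their call there, 32 of 119 REC1 effects, 15 of 48 differences from the mean and 4 of 12 trends, all with unchanged sizes. The REC1 effects of MYC (-0.58, adjusted p = 0.0589), TRIB3 (0.122), JUN (0.0991), BUB1 (0.134), CDKN1A (0.294), BCL2 (0.165) and BCL2L1 (0.155) were among them, and the differences of IL10RA (0.0637), GAS7 (0.157), GPX7 (0.187), LFNG (0.182), ISG20 (0.617) and GBP1 (0.0562). Signals close to background limit what can be seen to fall, and the single array per line, treatment and time limits the precision.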

Other observations

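MYEOV and CCND1 are neighbours among the measured genes of chromosome 11, and both passed the test in REC1 alone, though MYEOV was detected on only 1 array of the other lines. Of the other 9 genes within 5 measured places of CCND1, none differed from the mean of the other lines. FADD, an adaptor of death receptors, changed by -0.36 in REC1 (limma, adjusted p = 0.0215) and PPFIA1, a liprin, by 0.31 (adjusted p = 0.00839), with changes of -0.15, -0.27 and -0.07 for FADD and 0.62, 0.40 and 0.38 for PPFIA1 in the other lines. The other 7 genes, TPCN2, LTO1, ANO1, CTTN, IGHMBP2, MRGPRD and MRPL21, changed by -0.25 to 0.13 in REC1 and did not pass. These genes were chosen after the fall of MYEOV was seen.

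LAMP5, a lysosomal membrane protein of the brain and of some immune cells, changed by -1.78 in REC1 against -0.54, -0.75 and -0.71 in the other lines, and was detected in all 4 lines. DBP, a clock transcription factor, rose by 0.65 in REC1 against changes of -0.02, -0.05 and -0.08. LIN28B, a regulator of let-7 microRNAs, ETV1, an ETS factor, and HOXB7, a homeobox factor, fell by 1.29, 1.12 and 1.16 in REC1 and were detected in no other line. These 5 genes were chosen after their values were seen.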
